A study of Mus musculus with 3 samples.

Results

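Ion channel genes were followed in sorted endothelium from glomeruli, the filtering capillary tufts of the kidney, of adult mice. The members were taken by gene symbol, from families picked with earlier results of these data known. They were the potassium (Kcn), sodium (Scn and Scnn1) and voltage-gated calcium (Cacna, Cacnb and Cacng) channel genes, the TRP channels, Piezo1, Piezo2, Pkd1, the ClC family (Clcn) and the calcium release and store refilling genes (Itpr, Orai and Stim). The rule found 162 of the 19938 genes measured, on 186 probe sets, and 10 members had several probe sets. The cells were sorted for green fluorescence from adult mice (TS28) carrying Tg(TIE2GFP)287Sato on a mixed, primarily CD-1 background, in which the Tie2 (Tek) promoter drives the fluorescent protein. Sex was not recorded, and no disease model or treatment was part of these samples. There were 3 Affymetrix arrays, replicates 1, 3 and 5, each from 1 kidney, and all belong to 1 group. With no second group to compare, each gene was set against a level of 100, or 6.64 on the log2 scale, the number the study used as its filter on raw values. The Tie2 promoter is also active in some blood cells, which the sort alone does not remove.

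Endothelial cells carry no action potentials in the usual sense, but their channels set membrane potential and calcium entry. Piezo1 and Trpv4 open with flow or stretch and let calcium in, IP3 receptors release it from the endoplasmic reticulum, and Stim proteins sense the emptied store and open Orai pores. In resistance vessels, calcium then opens the potassium channels of Kcnn3 and Kcnn4, and the resulting hyperpolarization spreads to smooth muscle through connexins. Podocytes and tubules of the kidney use other members, such as Trpc6 in the slit diaphragm and the epithelial sodium channel in the collecting duct.

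Few of these genes were measured above the level. By limma, 4 of 162 channel genes (2.47%) were called above 100, 8 neither above nor below and 150 below, whereas 14.9% of all 19938 genes were called above, 11.3% neither and 73.8% below. Those above were the sodium channel gene Scn7a, the store sensor gene Stim2, the channel-kinase gene Trpm7 and the mechanically gated channel gene Piezo1. At an unadjusted p under 0.05 the same number, 4, was above, and limma's default variance prior gave 5 above (15% of all genes) and 149 below (74.3% of all genes). The median of the channel gene means was 4.55, and that of all gene means 5.02. Identical values on all 3 arrays were held by 73.5% of channel genes and 55.2% of all genes, and for such a gene the error comes wholly from the variance prior. Some tied values were also the same in different genes. Trpc4, Trpm2, Kcnj10 and Kcne2 were each at 4.1707, and Kcna5, Kcna6, Cacna1i and Clcn7 each at 4.4849. A low tied value is therefore not always particular to its gene. RNA of a sorted pool was measured, so fewer cells with a transcript and less of it per cell cannot be told apart, and the p-values rest on the scatter among these 3 arrays alone.

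**Figure D1:**
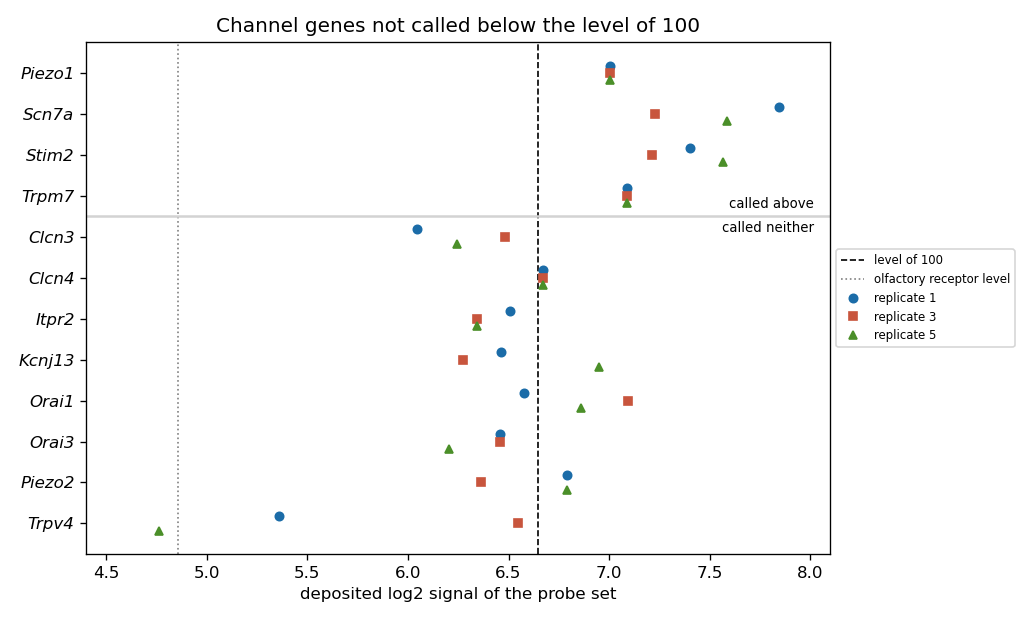
Deposited log2 signal (horizontal axis) of the 12 channel genes that were not called below the level of 100, with 1 marker per array and the level of 100 and the olfactory receptor level as vertical lines. All arrays of Piezo1, Scn7a, Stim2 and Trpm7 lie right of the level of 100, while Kcnj13, Orai1 and Piezo2 have arrays on both sides.

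The upstream sequences of the 4 genes called above differed in their CG content. The 250 bases before the RefSeq start site (GRCm38.p6) are given 5′ to 3′ on the strand of the gene, with each CG dinucleotide in capitals, because dense CG pairs mark promoters of broadly used genes. They lie at chr2:66784911-66785160 on the minus strand for Scn7a, at chr5:53998273-53998522 on the plus strand for Stim2, at chr2:126876262-126876511 on the minus strand for Trpm7 and at chr8:122551330-122551579 on the minus strand for Piezo1.
Scn7a: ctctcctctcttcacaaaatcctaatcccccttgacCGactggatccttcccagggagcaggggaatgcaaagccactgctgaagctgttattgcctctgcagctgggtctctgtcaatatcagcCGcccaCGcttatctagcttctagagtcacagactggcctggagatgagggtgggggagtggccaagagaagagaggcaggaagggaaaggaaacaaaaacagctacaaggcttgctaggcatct
Stim2: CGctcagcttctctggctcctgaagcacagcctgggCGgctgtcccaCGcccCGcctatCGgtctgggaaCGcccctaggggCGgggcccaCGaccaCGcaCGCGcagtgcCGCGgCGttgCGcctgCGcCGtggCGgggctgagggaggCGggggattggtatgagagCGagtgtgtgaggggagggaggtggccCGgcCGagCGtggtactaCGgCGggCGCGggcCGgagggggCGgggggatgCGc
Trpm7: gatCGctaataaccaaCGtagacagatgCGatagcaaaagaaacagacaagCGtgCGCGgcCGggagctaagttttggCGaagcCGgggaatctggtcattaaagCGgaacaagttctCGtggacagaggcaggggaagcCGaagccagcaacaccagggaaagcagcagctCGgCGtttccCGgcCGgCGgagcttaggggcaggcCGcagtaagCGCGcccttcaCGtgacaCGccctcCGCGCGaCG
Piezo1: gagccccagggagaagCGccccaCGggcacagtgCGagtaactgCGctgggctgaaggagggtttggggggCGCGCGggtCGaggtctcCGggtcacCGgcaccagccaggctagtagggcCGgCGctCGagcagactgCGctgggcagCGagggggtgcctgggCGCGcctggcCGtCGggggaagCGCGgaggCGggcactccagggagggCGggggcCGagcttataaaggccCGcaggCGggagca

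Scn7a had 3 CG dinucleotides in this stretch, Trpm7 and Piezo1 26 each and Stim2 30. Of all 32851 promoters in the RefSeq table, 71% held at least as many as Scn7a, 9.59% at least as many as Trpm7 or Piezo1, and 5.94% at least as many as Stim2. Of the 162 genes, 129 had a promoter there, and for genes with several the highest count was taken. The median was 26 over the 4 genes called above, 22 over the 7 called neither and 10.5 over the 118 called below. Over all 32851 promoters, counted singly, it was 6, and taking the highest count per gene can only raise the medians of the channel genes beside it. These counts describe the sequences and were not tested.

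Scn7a encodes Nax, a relative of the voltage-gated sodium channels that acts as a sensor of extracellular sodium in the mouse brain. It measured 7.84, 7.23 and 7.59 on replicates 1, 3 and 5, all above 6.64, with its lowest value on replicate 3. The mean was 7.55 ± 0.31 (SD, n = 3), 0.91 above the level on the log2 scale (limma, adjusted p = 0.0075). The call was kept without any one replicate, with arrays centred on their medians and with the default prior. The other 7 voltage-gated sodium channel alpha genes measured were called below.

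The neighbours of Scn7a did not share its call. In the RefSeq annotation Scn3a, Scn2a, Scn1a, Scn9a and Scn7a follow each other on chromosome 2, with Csrnp3, Galnt3 and Ttc21b, which encode no channels, between Scn2a and Scn1a. Scn9a, the pain-related channel gene next to Scn7a, was at 3.12 on each array, Scn1a at 2.95 on each array and Scn3a at 2.86, 3.03 and 3.03 on replicates 1, 3 and 5. All were called below the level (largest adjusted p = 6.88e-05). Scn2a had 14 probe sets, and all 14 were called below, with means of 2.72 to 3.78 for 13 of them and 5.53 for the other. Gm1322, on the far side of Scn7a, was at 3.38 and also called below, so that of the 10 genes in this run Scn7a alone was above.

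The remaining sodium channel genes were below 100 without exception. The neuronal channel gene Scn8a was at 3.70 on each array, and means of the 3 beta subunit genes Scn2b, Scn3b and Scn4b lay between 3.75 and 4.55. The epithelial sodium channel, the aldosterone-regulated channel of the collecting duct, had Scnn1b at 3.78 and Scnn1g at 4.18 on every array. Scnn1a measured 3.56 on replicates 1 and 5 and 4.55 on replicate 3.

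Piezo1 encodes the stretch-gated cation channel through which endothelium senses shear stress. The probe set that stands for it was at 7.003 on each array, 0.36 above the level (adjusted p = 0.0432). This call was lost without replicate 1 (adjusted p = 0.0697), without replicate 5 (adjusted p = 0.0658) and with arrays centred on their medians (adjusted p = 0.0503). It was kept without replicate 3 (adjusted p = 0.0401). The mean stayed 0.36 above the level in all these fits. With tied values, leaving out a replicate changed the number of arrays, the variance prior and the adjustment, and not the measured level. Of the other 2 probe sets, the second was at 6.34 on each array (adjusted p = 0.0654), and the third measured 5.59, 5.73 and 7.24 on replicates 1, 3 and 5 (adjusted p = 0.322). Neither was called, so the 3 probe sets of Piezo1 did not agree on the side of the level.

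Piezo2, the related channel of touch and proprioceptive neurons, was called neither. Its brightest probe set measured 6.79, 6.36 and 6.79 on replicates 1, 3 and 5, with a mean of 6.65 ± 0.25 (adjusted p = 0.988). The second ranged more widely than any other channel probe set, with 7.41, 4.80 and 6.82 on the same arrays (adjusted p = 0.638), and the third was below at 4.24, 4.10 and 4.10 (adjusted p = 0.0001). On the first 2 of these, replicate 3 was the lowest array.

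**Figure D2:**
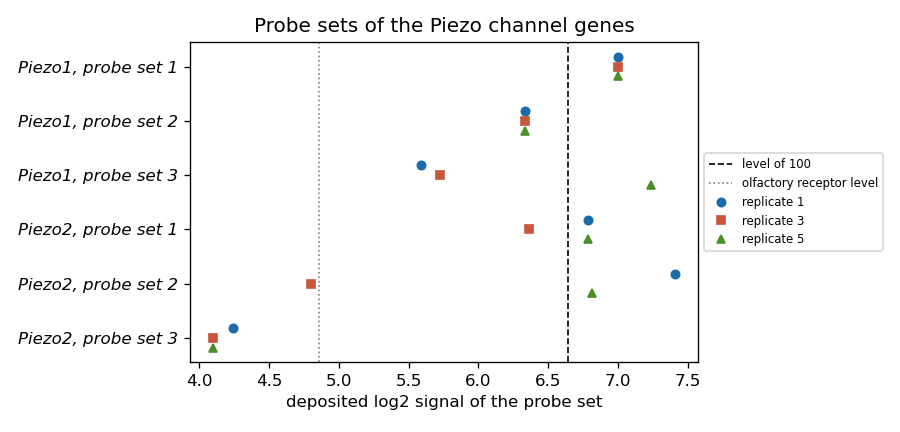
Deposited log2 signal (horizontal axis) of the 3 probe sets of Piezo1 and the 3 of Piezo2, numbered by falling mean, with 1 marker per array and the level of 100 and the olfactory receptor level as vertical lines. Only the first probe set of Piezo1 has all its arrays above the level of 100, and the second of Piezo2 spans 4.80 to 7.41.

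Of the 20 TRP genes, 1 was above the level, 1 neither and 18 below. Trpm7, which encodes a magnesium- and calcium-permeable channel fused to a kinase and is used by most cells, was at 7.09 on each array (adjusted p = 0.0225). Trpv4, the osmo- and mechanosensitive calcium channel gene of endothelium, measured 5.36, 6.55 and 4.76 on replicates 1, 3 and 5, with a mean of 5.55 ± 0.91 (adjusted p = 0.0541). No array reached the level, and replicate 3 was the highest by over 1 log2. Without replicate 3 Trpv4 was called below (adjusted p = 0.00243). Trpc1, a subunit of receptor-operated channels, had 4.69, 4.69 and 5.99 on the same arrays and was called below (adjusted p = 0.0117), a call that the default prior did not make (adjusted p = 0.0751).

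Other TRP channels described in endothelium or its neighbours were below 100 on every array. The receptor-operated channel gene Trpc4 was at 4.17, the calcium-activated channel gene Trpm4 at 4.96, Trpv2 at 4.60 and the irritant receptor gene Trpa1 at 3.04, each with the same value on all arrays. Trpc6 and Trpc5, the members best known from podocytes, were at 4.17 and 4.10 on each array. Trpv5 and Trpm6, which carry calcium and magnesium into distal tubule cells, were at 4.02 and 3.67. Pkd1, the polycystin gene mutated in polycystic kidney disease, was at 5.57 on each array and called below (adjusted p = 0.00115).

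Genes of calcium release and store refilling were the class with the largest share of members that were not below. Of 7 genes, 1 was above, 3 neither and 3 below, and their median mean was 6.37. Stim2, the store sensor that keeps resting calcium, measured 7.40, 7.21 and 7.56 on replicates 1, 3 and 5, all above the level, with a mean of 7.39 ± 0.18 (adjusted p = 0.0069). Stim1, the sensor that answers strong store depletion, measured 5.53, 5.53 and 5.38 and was called below (adjusted p = 0.001).

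The Orai genes encode the pores that Stim proteins open. Orai1 had 6.58, 7.09 and 6.86 on replicates 1, 3 and 5, and was called neither at 6.84 ± 0.26 (adjusted p = 0.292), with replicate 1 alone under the level. Orai3 had 6.46, 6.46 and 6.20 and was also called neither (adjusted p = 0.119), with every array under the level. Orai2 was called below at 4.79 on each array. Among IP3 receptor genes, Itpr2 had 6.51, 6.34 and 6.34 (adjusted p = 0.127) and was called below only with the default prior (adjusted p = 0.0474). Itpr3 was below, with 5.79, 6.11 and 5.79 (adjusted p = 0.00729).

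**Figure D3:**
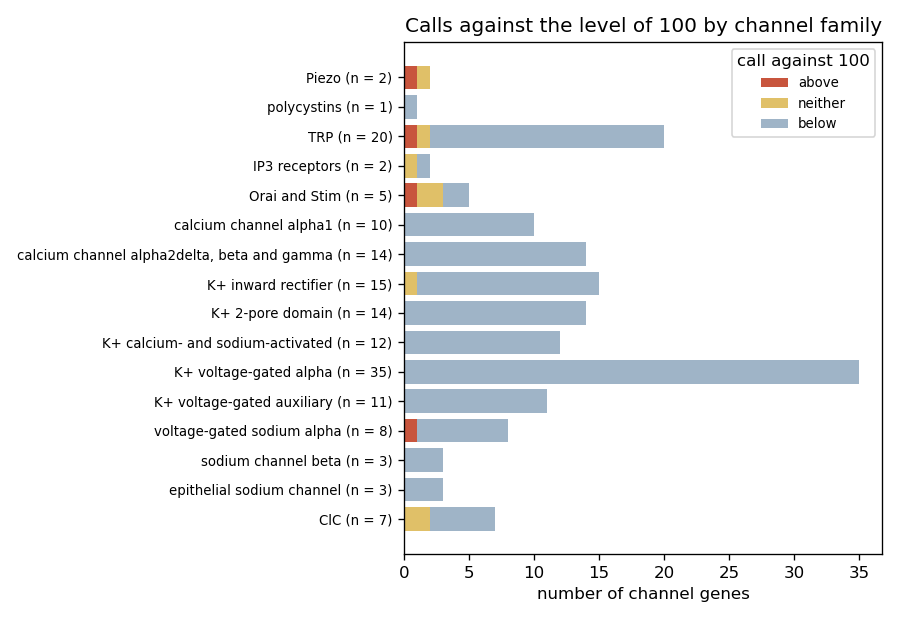
Number of channel genes (horizontal axis) in each of 16 families, split by the limma call against the level of 100 into above, neither and below. Families of potassium channels carry K+ in their name. All 35 voltage-gated potassium channel alpha genes were called below, and 1 of 5 Orai and Stim genes was above with 2 neither.

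No potassium channel gene was called above 100. Of 87, limma called 86 below and 1 neither, and the count above was also 0 at an unadjusted p under 0.05 and with the default prior. The gene called neither was Kcnj13, an inward rectifier best known from epithelia, at 6.46, 6.27 and 6.95 on replicates 1, 3 and 5 (adjusted p = 0.687), where replicate 5 alone was over the level. The class median of the means was 4.55, with a lowest mean of 2.83 (Kcnt2).

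The potassium channels known for endothelial hyperpolarization were among those below. Kcnn3, the small-conductance calcium-activated channel gene, measured 4.85, 5.08 and 4.75 on replicates 1, 3 and 5 (adjusted p = 0.000359). Kcnn4, its intermediate-conductance relative, had 4.78 on replicates 1 and 5 and 5.33 on replicate 3 (adjusted p = 0.000946). The flow-sensitive inward rectifier gene Kcnj2 was at 3.07, 3.21 and 3.21. In each of these 3 genes the spread between arrays was smaller than the distance to the level.

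Subunits of ATP-sensitive potassium channels were also below, with the vascular pore gene Kcnj8 at 4.72, 4.74 and 4.74 and the pore gene Kcnj11 at 5.68 on all arrays. Kcnma1, the large-conductance channel of smooth muscle and mesangial cells, was at 3.47, 3.54 and 3.41, and its smooth muscle partner Kcnmb1 at 3.48, 3.61 and 3.61. Among the 14 2-pore domain channel genes, which carry background current, Kcnk6 had 6.27, 5.90 and 6.01 (adjusted p = 0.0167), the acid-sensitive Kcnk3 was at 5.75 and the stretch-sensitive Kcnk2 at 4.64 on each array. Voltage-gated genes described in vessels lay below as well, with Kcna5 at 4.48, Kcnq1 at 4.98 and Kcnq5 at 3.94 on each array. Kcnj14 measured 5.78, 5.73 and 4.95 and was called below (adjusted p = 0.00803), but not with the default prior (adjusted p = 0.0518).

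Potassium and chloride channels of the tubule were low on these arrays. Kcnj1, the secretory channel of the thick ascending limb and collecting duct, was at 3.64, 3.65 and 3.64, Kcnj10 at 4.17 and Kcnj16 at 3.87 on each array, and Kcne1 at 4.02. Clcn5, the endosomal exchanger gene of the proximal tubule, was at 4.85 on each array and was called below 100 with the others. All 6 proximal tubule and all 6 distal nephron markers were called below, as were the 9 mesangial and smooth muscle, 6 leukocyte, 4 red cell and platelet and 6 nerve markers, while all 8 endothelial markers were above. Of 5 podocyte markers 4 were below, and Podxl, which endothelium also uses, was above at 9.86 ± 0.08.

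Of 7 ClC genes, 2 were called neither and 5 below. Both encode chloride-proton exchangers of endosomes. Clcn4 was at 6.67 on each array (adjusted p = 0.851) and was called above only with the default prior, where its tied values leave no spread. Clcn3 had 6.04, 6.48 and 6.24 on replicates 1, 3 and 5 (adjusted p = 0.0652), all under the level, and was called below without replicate 3 (adjusted p = 0.0212). Clcn7, the lysosomal member, was at 4.48 on each array.

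All 24 voltage-gated calcium channel genes were called below, and limma put 0 above, with 0 also when p was not adjusted (p under 0.05) and 0 under the default prior. The L-type pore gene of smooth muscle, Cacna1c, was at 3.94 on each array, and the T-type pore genes Cacna1g and Cacna1h at 4.55 and 4.85. Among the 10 pore genes the highest mean was 5.43, for Cacna1a, and among the 14 genes of auxiliary subunits it was 5.66, for Cacng2.

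A level of 100 does not mark the limit of the array. Olfactory receptor genes, which serve the nose, gave a lower level. Of their 1023 probe sets, the 95th percentile was 28.9, or 4.85 on the log2 scale. Against it, limma called 37 of 162 channel genes above (22.8%), 45 neither (27.8%) and 80 below (49.4%). Of all genes, 43.9% were above, 19.7% neither and 36.4% below. On all 3 arrays 104 channel genes were under this level, a count given here without its share over all genes. Of the calcium release and store refilling genes 6 of 7 were above it, of the ClC genes 4 of 7, and of the 2-pore domain genes 6 of 14. Of the 20 TRP genes 1 was above (Trpm7), and of the 87 potassium channel genes 17. Piezo1, Piezo2, Pkd1, Itpr2, Itpr3, Orai1, Orai3, Stim1 and Stim2 were above it, whereas Kcnn3, Kcnn4, Kcnj8 and Trpv4 were called neither and Kcnj2, Kcnma1 and Trpc6 below. Kcng1 at 6.23 and Kcnj5, an inward rectifier subunit gene best known from the heart, at 6.21 on each array were above this level and below 100. Among markers of other cells, 3 of 5 for podocytes (Podxl, Nphs1 and Wt1) and 2 of 4 for red cells and platelets were above the olfactory receptor level. So were 1 of 9 mesangial and smooth muscle markers and 1 of 6 each for proximal tubule, distal nephron, leukocytes and nerve.

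Most channel genes had no difference between arrays to describe, being tied. By the brightest probe set of each gene, a range of over 1 log2 was seen in 2 of 162 genes (1.23%), against 5.07% of all genes. They were Trpv4 and Trpc1, with ranges of 1.78 and 1.31. Dimmer probe sets, which this count leaves out, ranged over 2.61 for Piezo2 and 1.65 for Piezo1. Tied genes have no range, and among those not tied the shares were 2 of 43 channel genes (4.65%) and 1011 of 8925 genes in all (11.3%). After Trpv4 and Trpc1, the widest by the brightest probe set were Scnn1a, Kcne3 and Kcnj14. Kcne3, an auxiliary subunit gene, had 3.35, 4.27 and 3.29 on replicates 1, 3 and 5. Of the 43 channel genes with any difference between arrays, 16 (37.2%) had their highest value on replicate 3 alone, 5 on replicate 1 and 6 on replicate 5. Over all 8925 genes with any difference the share for replicate 3 was 30.3%.

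Replicate 3 stood apart in markers of arterial endothelium. Of 8 such markers, 7 differed between arrays and 6 of those were highest on replicate 3, among them Gja5, a connexin gene of arterial endothelium, with 7.37, 8.70 and 5.82 on replicates 1, 3 and 5. Mgp, which encodes a matrix inhibitor of calcification, had 5.37, 10.18 and 4.80. The median of the arterial list was 6.95, 8.74 and 6.17 on the same arrays, and its summed linear signal 2582, 4853 and 3414. Trpv4, Kcnn3, Kcnn4, Kcne3 and Scnn1a had their highest value on replicate 3, while Scn7a, Stim2 and Piezo2 had their lowest there. Of these, Kcne3 and Scnn1a were under the olfactory receptor level on every array, and Trpv4, Kcnn3 and Kcnn4 were called neither against it. The genes named are examples. Of the 43 channel genes that differed, 37.2% were highest and 18.6% lowest on replicate 3 alone, against 30.3% and 27.4% of all genes that differed. The endothelial list had its lowest median on replicate 3, with 10.76, 10.10 and 10.89. The part of these differences in the channel values was not tested.

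**Figure D4:**
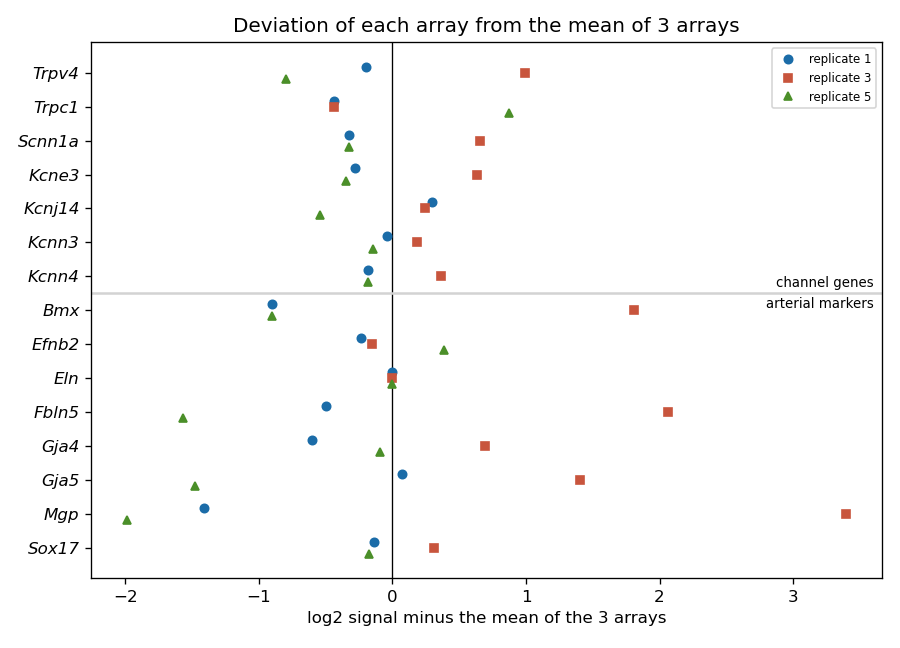
Log2 signal of each array minus the mean of the 3 arrays (horizontal axis), with 1 marker per array. Shown are the 5 channel genes with the widest range by their brightest probe set, the endothelial channel genes Kcnn3 and Kcnn4, and 8 arterial markers. Replicate 3 is the highest array for Trpv4, Scnn1a, Kcne3, Kcnn3 and Kcnn4 and for 6 arterial markers, but not for Trpc1, Kcnj14 or Efnb2. Scnn1a and Kcne3 lie under the olfactory receptor level on every array, and Trpv4, Kcnn3 and Kcnn4 were called neither against it. Not shown are channel genes such as Scn7a, Stim2 and Piezo2, which were lowest on replicate 3.

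Genes that work with these channels were counted in fixed lists, drawn up with earlier results of these data known. Of 19 genes of calcium handling, 5 were above (26.3%, against 14.9% of all genes), 2 neither and 12 below (63.2%, against 73.8%). The pumps that return calcium to the store or expel it had Atp2a2 at 8.49 and Atp2b1 at 9.14 on each array, Atp2a3 at 7.77, 7.93 and 7.77 and the Golgi pump gene Atp2c1 at 8.42, 8.26 and 8.74. Saraf, which encodes an inhibitor of store-operated entry, was at 7.41 ± 0.07. The ryanodine receptor genes Ryr1, Ryr2 and Ryr3, release channels of muscle and nerve, were below at 4.59, 4.22 and 4.17.

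Partners of endothelial hyperpolarization had 13 of 24 genes above (54.2%, against 14.9% of all genes), 5 neither and 6 below. With the default prior 11 were above, without Gja4 (adjusted p = 0.0556) and P2ry1 (adjusted p = 0.0575). Above were the connexin genes Gja4, also an arterial marker and highest on replicate 3, at 7.60, 8.90 and 8.12 and Gjc1 at 8.68 ± 0.22, the G protein genes Gnaq at 8.44 ± 0.28 and Gna11 at 8.85 ± 0.01, and the phospholipase genes Plcb1 at 7.90, Plcb3 at 7.05 and Plcg1 at 7.54 on each array. The thrombin receptor gene F2r at 7.75 ± 0.01, the purine receptor gene P2ry1 at 7.64 ± 0.43, Cav1 at 8.77 ± 0.03, Calm2 at 12.93 ± 0.01, Calm3 at 7.80 ± 0.23 and Atp1b3 at 8.23 ± 0.05 were above as well. Nos3, which makes nitric oxide, was called neither at 6.31, 6.93 and 6.63. So were the connexin genes Gja1 at 6.51, 8.84 and 5.69 and Gja5 at 7.37, 8.70 and 5.82 on replicates 1, 3 and 5. The receptor gene Chrm3 at 6.64 ± 0.22 and Plcb4 at 6.27 ± 0.14 were called neither as well. Below were the receptor genes Bdkrb2 at 5.15 and P2ry2 at 6.19, with Plcg2 at 6.17 and Atp1b1 at 3.51. The sulfonylurea receptor genes Abcc8 and Abcc9, partners of Kcnj11 and Kcnj8, were called below at 4.60 and 4.48.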

How the data were processed

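Total RNA of sorted Tie2-GFP positive cells was amplified in 1 round before Affymetrix Mouse Gene ST array hybridisation. Affymetrix Expression Console, without a version, is named in the submitters' processing notes, and the study names RMA for its own analysis. The authors deposited log2 signal per probe set, which was used without further normalization here. The study's filter of 100 was on raw values, which may be scaled otherwise. The set of arrays normalized together was not given in the sources used here. Medians over 35557 probe sets were 4.85, 4.80 and 4.79 on replicates 1, 3 and 5. The number of arrays limits the precision.

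Of the probe sets, 21789 name 1 gene in the platform annotation, 1621 name several and 12147 are not named there; the first were tested. All 186 channel probe sets matched RefSeq by Entrez identifier. For genes with several probe sets the one with the highest mean was used. limma 3.58.1 in R 4.3.3 tested each mean against log2 of 100 (two-sided). P-values were adjusted by Benjamini-Hochberg across the 21789 probe sets, with calls at 0.05. Because 54.1% of them had identical values on all 3 arrays (within 1e-09), the variance prior came from the 4406 with 3 distinct values (prior SD 0.288, 2.03 degrees of freedom). The fit was tested on simulated data. Their spreads were drawn from the fitted prior and ties were placed at random, so calls on the real tied probe sets were not checked. Members, families and lists were chosen with earlier results of these data known. Genes were named by rule: all called above or neither, fixed lists of endothelial and other kidney channels, the 5 of widest range and partners called above. Kcng1, Kcnj5 and others outside it were picked after their values were seen. Alternatives were the default prior, other levels, leaving out each replicate, median centring, another probe set per gene, a filter on dim probe sets, fitting all probe sets, and values on all arrays with no test.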

Additional observations from a re-analysis of the deposited data

How the results depend on the processing

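The level set the counts. With the olfactory receptor level, 37 channel genes were above, 45 neither and 80 below, 13 of 16 families held a gene above, and 49 partner and other channel genes were above and 30 below. With 100 these were 4, 8 and 150 channel genes, 4 families, and 28 and 54 partner and other channel genes. At a level of 50, 16 channel genes were above and 21 neither, in 9 families. At 200, limma called 0 above (0 at an unadjusted p under 0.05) and 2 neither, in 0 families, and 16 partner and other channel genes above. Leaving out dim probe sets left 58 channel genes and hence 46 below. Leaving out a replicate gave 3 to 4 channel genes above, 150 to 152 below and 6 to 9 neither. Shares over all genes are not given for the levels of 50 and 200, without a replicate or without dim probe sets. The counts there show how the setting moved them, and do not set channel genes apart from other genes. Genes that differed by over 1 log2 numbered 2, with 1 to 2 without a replicate and 3 after centring. The 3 above in place of 4, after centring, without replicate 1 or 5, with dim probe sets left out (adjusted p = 0.0652) or with all probe sets fitted (adjusted p = 0.0713), arose from Piezo1. Of 52 named channel genes, 51 kept their call after centring and 48 with the default prior. Calls that changed are given with each gene. None went from above to below or the reverse with the default prior, after centring or without a replicate. Means of Kcnj13 and Piezo2, both called neither throughout, did cross the level. Against log2 of 100, Kcnj13 was at -0.0837 in the main fit and at 0.0608 without replicate 3. Piezo2 was at 0.0025, and at -0.0687 without replicate 1 or without replicate 5. At the olfactory receptor level, named genes called below 100, such as Pkd1, Stim1, Itpr3, Kcnk3, Kcnk6 and Kcnj11, were above. No paired analysis was possible because all arrays form 1 group.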

Other observations

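Channel genes outside the families described so far were counted in a list of their own. Of its 53 genes, 10 were above (18.9%, against 14.9% of all genes), 7 neither (13.2%, against 11.3%) and 36 below (67.9%, against 73.8%). With the default prior 15 were above, among them Lrrc8b, Lrrc8d and P2rx7, which were called neither otherwise. The volume-regulated anion channel, a complex of LRRC8 proteins that releases chloride and osmolytes when cells swell, had its obligatory subunit gene Lrrc8a at 7.53, 7.53 and 7.65 on replicates 1, 3 and 5 (limma, adjusted p = 0.00209). Lrrc8c was at 9.65, 9.56 and 9.86 (adjusted p = 8e-05), Lrrc8b and Lrrc8d were called neither at 6.84 on each array, and Lrrc8e was below at 5.48. Ano6, a calcium-activated scramblase and channel gene, was at 8.85 on each array, and Tmem63a, which encodes an osmosensitive cation channel, at 7.41 on each array. The chloride intracellular channel genes Clic4 at 11.91 ± 0.06, Clic5 at 9.10 ± 0.21 and Clic1 at 9.43 ± 0.27 were above, as were the mitochondrial porin genes Vdac1, Vdac2 and Vdac3 at 7.16 ± 0.13, 9.74 ± 0.13 and 10.44 ± 0.29. The ATP-gated channel gene P2rx4, which takes part in endothelial responses to flow, had 6.26, 5.82 and 6.86 and was called neither (adjusted p = 0.258), and so was P2rx7 at 6.94 ± 0.01 (adjusted p = 0.0712). Ano1, the calcium-activated chloride channel gene of smooth muscle and epithelia, was below at 5.45, 5.74 and 4.83.

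Probe sets that name several genes were left out of the counts. The 4 that name a channel gene, 3 for sodium channel genes and 1 that holds Trpc2, were under 100 on all arrays, with values of 2.41 to 5.11.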
